A study of Mus musculus with 9 samples.

Results

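The genes followed here encode 7 Toll-like receptors (Tlr1, Tlr2, Tlr4, Tlr6, Tlr7, Tlr9 and Tlr13) and 3 proteins that serve lipopolysaccharide (LPS) recognition beside them (Cd14, Ly96 and Cd180). These 10 genes were taken by symbol from 54532 genes measured by RNA-seq, and each of them was present in all 9 libraries. The cells were RAW264.7, an established mouse macrophage line derived from ascites of a tumour-bearing animal and labelled as wild type, so all groups share the background of 1 transformed line. Untreated cells served as the control group. A second group received LPS (1 μg/ml) for 6 h, and the last group received the same dose of LPS for the same time plus 400 μg/ml G-CDs, with 3 libraries in each group. G-CDs are carbon dots, small carbon nanoparticles made by heating pieces of roasted Glycyrrhiza (licorice root) in water, and were studied as scavengers of reactive oxygen species. No group received G-CDs without LPS. The titles, the design text and the methods of the study name G-CDs in the last group, whose treatment field lists only LPS. Neither the labels nor the methods say that the 3 libraries of a group came from separate cultures, so the p-values measure the spread between libraries, which may be technical.

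Toll-like receptors recognise conserved microbial molecules. At the cell surface CD14 takes up LPS and hands it to MD-2, the product of Ly96, which sits on TLR4 and holds the lipid. TLR2 pairs with TLR1 or with TLR6 to bind bacterial lipoproteins, and CD180 with its partner MD-1, the product of Ly86, forms a TLR4-like receptor that lacks a signalling tail. TLR7, TLR9 and TLR13 sense single-stranded RNA, unmethylated CpG DNA and bacterial ribosomal RNA inside endosomes, where the chaperone UNC93B1 delivers them. Most of these receptors signal through the adaptor MyD88 to IRAK kinases, NF-κB and inflammatory genes, and NF-κB in turn is known to act on several receptor genes in macrophages.

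Each library held between 14752400 and 17312255 reads assigned to genes. The LPS libraries resembled each other most closely (Pearson r of log2(FPKM + 1) across genes between 0.987 and 0.988), with wider ranges among the control libraries (0.94 to 0.969) and the LPS + G-CDs libraries (0.935 to 0.975). All 10 macrophage markers listed averaged at least 1 FPKM in each group, and the only value under 1 FPKM was that of Aif1 in LPS replicate 2 (0.662 FPKM). Cd68 was uneven in control cells, at 86.8, 324 and 418 FPKM in replicates 1, 2 and 3. No list of markers of B cells, T cells, neutrophils, dendritic cells, fibroblasts, epithelium or red cells summed to more than 0.956 FPKM in a library, and Mpo, Elane, Ms4a1, Cd3g, Cd8a, Pdgfra, Epcam and Cdh1 were listed at 0 throughout. Among the macrophage markers Adgre1, Ptprc and Itgam rose and Csf1r and Lyz2 fell with LPS. The calls for Itgam (limma adjusted p = 0.048) and Lyz2 (0.024) were kept in 6 and 15 of 20 alternatives. Among genes known to respond to the treatments, Tnf, Il6, Il1b, Nos2, Ptgs2, Csf3, Acod1 and Cxcl2 rose with LPS and Hmox1, Srxn1 and Gclm, antioxidant targets of Nrf2, rose by 3.23, 2.22 and 2.03 on the log2 scale when G-CDs were added. Nqo1, another target of Nrf2, was too low to be tested, with group means of 0.107 to 0.260 FPKM. Nos2 was lower with LPS + G-CDs than with LPS by a log2 difference of -1.1 (limma adjusted p = 0.046), a call kept in 6 of 20 alternatives. The other 7 genes of the LPS response were not called between LPS + G-CDs and LPS (limma adjusted p from 0.32 to 0.89). The log2 differences were -0.74 for Ptgs2, -0.41 for Csf3, -0.29 for Il1b and -0.21 for Acod1. They were -0.17 for Il6, 0.06 for Tnf and 0.25 for Cxcl2. Ptgs2, Csf3, Il1b and Acod1, like Nos2, had every LPS + G-CDs library below every LPS library, which 15.0% of all tested genes had. Il6, Tnf and Cxcl2 overlapped between the groups. The libraries hold RNA of whole cultures, so a change in the number of cells of a kind and a change in RNA per cell cannot be told apart.

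LPS raised 4 of the 10 genes and lowered 2. Cd14 and Tlr1 rose the most, to 5.26 and 4.71 times the control mean, and were followed by Tlr2 at 2.21 times and Tlr6 at 1.66 times. Tlr13 fell to 0.217 times and Tlr4 to 0.453 times the control mean. Differences were estimated with limma on log2(FPKM + 1). FPKM is a fragment count divided by gene length and by a library size, which was here 0.880 to 1.14 times the reads on genes. The 11585 genes with at least 1 FPKM in at least 3 libraries were tested, a filter that all 10 genes passed. A gene was called at a Benjamini-Hochberg adjusted p under 0.05 over all tested genes. At this threshold 15.8% of all tested genes were higher and 15.6% were lower in the LPS group, against which the 4 and 2 of 10 are to be read. The median log2 fold change of the 10 genes was 0.519, beside 0.0165 for all tested genes, and the values ran from -1.53 to 2.40. The added 1 understates the changes of genes at low FPKM. With limma's voom on reads rebuilt from FPKM, the log2 fold change was -2.18 for Tlr13, -1.07 for Tlr4 and -0.60 for Tlr9. It was 0.73 for Tlr6 and 0.60 for Ly96.

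**Figure D1:**
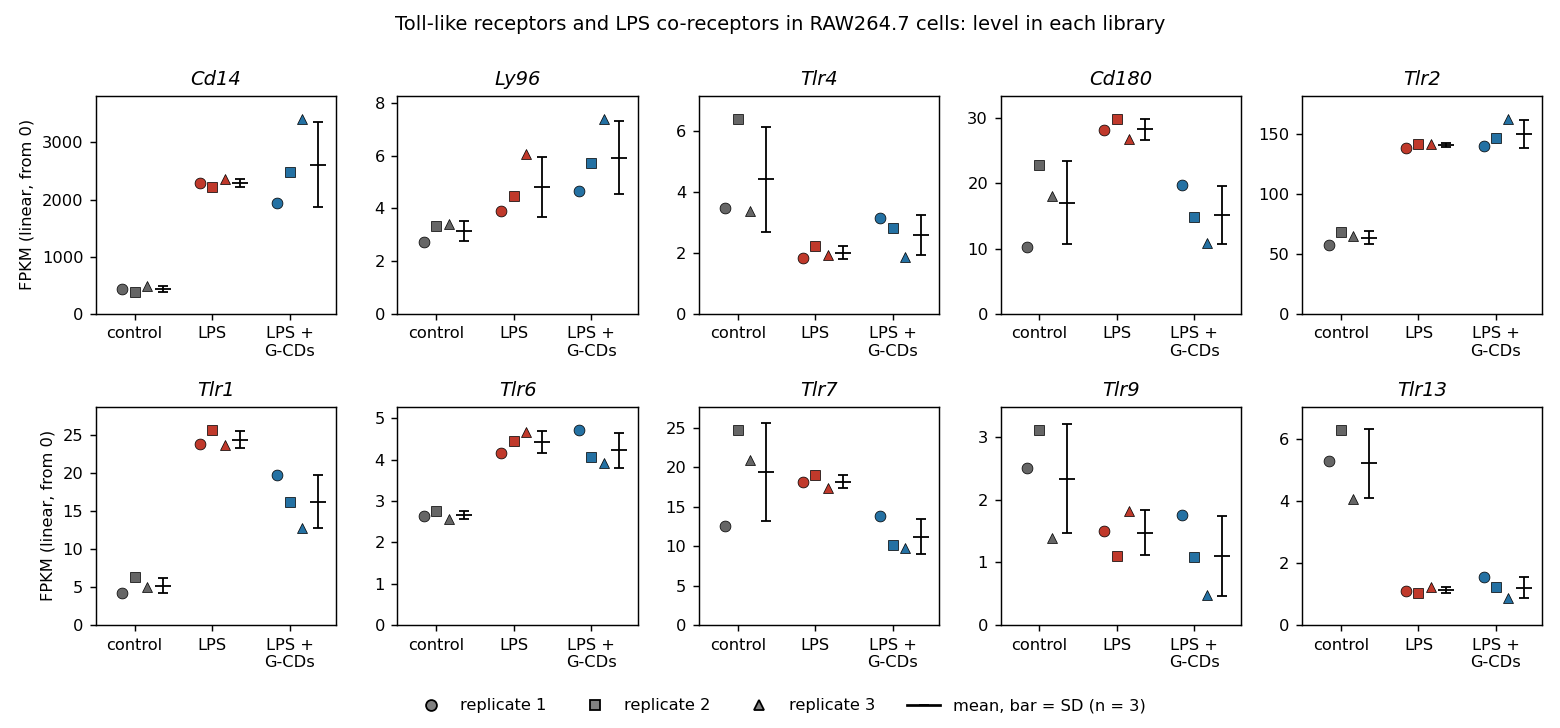
Level of each gene in FPKM (linear axes starting at 0) in the 3 control, 3 LPS and 3 LPS + G-CDs libraries, with symbols for replicate numbers and the mean with its SD (n = 3) beside them. Cd14, Tlr2, Tlr1 and Tlr6 sit higher in every LPS library than in any control library, and Tlr4 and Tlr13 sit lower.

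Cd14, the LPS-binding co-receptor, was by far the most abundant of the 10 genes. Its level was 427, 387 and 493 FPKM in the control libraries, 2287, 2225 and 2364 FPKM in the LPS libraries, and 1945, 2476 and 3412 FPKM in the LPS + G-CDs libraries. Every treated library exceeded every control library, and the LPS + G-CDs libraries spread to both sides of the LPS range. Cd14 ranked 69 of 11585 tested genes by mean level in control cells and 11 in LPS-treated cells. Its log2 fold change with LPS was 2.40 ± 0.23 (SE, n = 3 per group, limma adjusted p = 8.3e-05). The files place it at chr18:36725074-36726736 on the minus strand of GRCm38, with 99.7% of its coding sequence in 1 exon.

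Ly96 encodes MD-2, without which TLR4 cannot hold LPS. It was measured at 2.72, 3.34 and 3.41 FPKM in control cells, at 3.90, 4.47 and 6.06 FPKM with LPS, and at 4.67, 5.72 and 7.39 FPKM with LPS + G-CDs. The LPS and control libraries did not overlap, whereas the limma adjusted p of 0.085 missed the threshold (log2 fold change 0.47 ± 0.19, SE, n = 3 per group). The call was missed in 18 of 20 alternatives, with limma adjusted p-values up to 0.27. It was made with the replicate number as a block (0.019) and, at the edge of the threshold, with the gene-length trend removed (0.05), whereas on the TPM scale the log2 fold change was 0.26 with an adjusted p of 0.26. The values rest on 52 to 106 reads per library. Ly96 lies at chr1:16688051-16709611 on the plus strand and is the only gene of the 10 without most of its coding sequence in 1 exon, with 26.9% of it in the largest of 5.

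Tlr4, the signalling receptor for LPS itself, moved the opposite way to its co-receptor Cd14. Control libraries held 3.47, 6.41 and 3.38 FPKM, LPS libraries held 1.85, 2.24 and 1.92 FPKM, and LPS + G-CDs libraries held 3.14, 2.81 and 1.86 FPKM. All 3 LPS libraries lay below all 3 control libraries, and control replicate 2 stood well above the others of its group. The log2 fold change with LPS was -0.81 ± 0.22 (SE, n = 3 per group, limma adjusted p = 0.024). Without control replicate 2 it was -0.56 with an adjusted p of 0.052, so that this library bears on the size of the difference. Without LPS replicate 1, 2 or 3 the log2 fold change stayed at -0.77, -0.87 or -0.79, with an adjusted p of 0.079, 0.054 or 0.073. The gene spans chr4:66827584-66930284 on the plus strand, and 89.7% of its coding sequence lies in 1 of its 3 coding exons.

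Cd180, the receptor without a signalling tail, was measured at 10.2, 22.8 and 18.1 FPKM in control cells, at 28.2, 29.9 and 26.7 FPKM with LPS, and at 19.7, 14.8 and 10.9 FPKM with LPS + G-CDs. The LPS libraries were above all other libraries of the series, while control and LPS + G-CDs libraries overlapped. The log2 fold change with LPS was 0.76 ± 0.28 (SE, n = 3 per group) at a limma adjusted p of 0.07. The adjusted p was 0.033 without control replicate 2 and 0.049 without LPS + G-CDs replicate 3, whereas without control replicate 1 the log2 fold change was 0.46 with an adjusted p of 0.17. Its partner Ly86 was uneven in control cells, at 8.53, 23.4 and 26.2 FPKM, and was at 18.9, 17.0 and 17.1 FPKM with LPS. Cd180 lies at chr13:102693558-102739629 on the plus strand, where its exons overlap the gene Mast4 on the other strand, which stayed between 0.0903 and 0.345 FPKM.

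The 3 genes of the lipoprotein receptors rose together. Tlr2, the shared partner, was measured at 57.7, 68.7 and 64.7 FPKM in control cells and at 139, 142 and 142 FPKM with LPS, with no overlap (log2 fold change 1.14 ± 0.12, SE, n = 3 per group, limma adjusted p = 0.00016). Tlr1, its partner for triacylated lipoproteins, went from 4.25, 6.25 and 5.00 FPKM to 23.8, 25.6 and 23.7 FPKM (2.05 ± 0.17, adjusted p = 3.1e-05). Tlr6, its partner for diacylated lipoproteins, went from 2.65, 2.76 and 2.58 FPKM to 4.15, 4.45 and 4.67 FPKM (0.57 ± 0.11, adjusted p = 0.0039). The rise was thus large in one of the partners and small in the other.

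Tlr1 and Tlr6 are neighbours on the minus strand of chromosome 5, at chr5:64924679-64933563 and chr5:64952031-64960097, with 18467 bases between them. Their transcripts share sequence, since 15.3% of the 50-base words of Tlr1 occur in Tlr6 and 12.6% of those of Tlr6 occur in other genes, nearly all in Tlr1. How reads from shared stretches were assigned is not given in the sources used here, so part of the value of either gene is uncertain. On the TPM scale, which moved the median of all genes by LPS to -0.21, the log2 fold change of Tlr6 was 0.36 with an adjusted p of 0.13, and relative to that median it was 0.574. All of the coding sequence of Tlr1, Tlr2 and Tlr6 lies in a single exon, a feature that played no part in the choice of the genes, and Tlr2 spans chr3:83836272-83841767 on the minus strand.

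The promoters of the lipoprotein receptor genes are shown because the 3 genes rose together with LPS. The sequences are those of RefSeq (GRCm38.p6), which gave windows from 250 bases before to 50 bases after a transcription start for 6 of the 10 genes. Where a gene had 2 windows, the one nearest to the start of the gene in the files was taken. Capitals mark matches to the NF-κB consensus or to GAGGAA, the core letters bound by the macrophage factor PU.1, on either strand. Positions are counted from the RefSeq start, and the strand of each window is given. For Tlr2 the window is chr3:83841559-83841858 (minus strand), for Tlr1 it is chr5:64933509-64933808 (minus strand) and for Tlr6 it is chr5:64959999-64960298 (minus strand).
Tlr2: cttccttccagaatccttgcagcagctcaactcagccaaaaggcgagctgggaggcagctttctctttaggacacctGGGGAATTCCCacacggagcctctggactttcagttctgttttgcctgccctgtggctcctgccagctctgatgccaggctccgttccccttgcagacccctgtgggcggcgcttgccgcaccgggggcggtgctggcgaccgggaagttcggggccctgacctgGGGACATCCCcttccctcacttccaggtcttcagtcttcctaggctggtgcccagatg
Tlr1: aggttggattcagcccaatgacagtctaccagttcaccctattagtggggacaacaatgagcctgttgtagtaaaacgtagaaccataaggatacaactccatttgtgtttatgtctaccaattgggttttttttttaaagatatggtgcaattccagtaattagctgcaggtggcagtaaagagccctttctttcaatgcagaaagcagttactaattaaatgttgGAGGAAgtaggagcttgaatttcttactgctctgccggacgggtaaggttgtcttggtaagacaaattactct
Tlr6: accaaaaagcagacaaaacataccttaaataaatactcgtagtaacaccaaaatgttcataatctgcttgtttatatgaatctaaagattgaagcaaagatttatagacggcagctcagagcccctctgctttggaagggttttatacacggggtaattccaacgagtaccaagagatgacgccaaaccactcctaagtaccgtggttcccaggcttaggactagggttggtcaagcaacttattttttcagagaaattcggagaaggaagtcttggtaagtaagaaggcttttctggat

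The Tlr2 window matched the NF-κB consensus at positions -173, -172 and -8, the first 2 being 1 palindromic stretch read in 2 frames, and 62% of its bases were G or C. The Tlr1 window held GAGGAA once, at -23, and no NF-κB match. The Tlr6 window held neither but carried TATAAA on one strand or the other at -180, -150 and -109. Over all 32851 windows of this length, 8.46% matched the NF-κB consensus, 28.3% held GAGGAA and 13.6% held TATAAA. These matches describe the letters of the windows and were not measured as binding sites.

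Of Tlr7, Tlr9 and Tlr13, the endosomal receptors among the 10 genes, only Tlr13 passed the test with LPS. Tlr13, the sensor of bacterial ribosomal RNA, was measured at 5.29, 6.28 and 4.06 FPKM in control cells, at 1.11, 1.04 and 1.23 FPKM with LPS, and at 1.54, 1.22 and 0.860 FPKM with LPS + G-CDs. No treated library reached the lowest control library, and the log2 fold change with LPS was -1.53 ± 0.17 (SE, n = 3 per group, limma adjusted p = 0.00018). Tlr7, the sensor of single-stranded RNA, was at 12.6, 24.7 and 20.9 FPKM in control cells and at 18.1, 19.1 and 17.4 FPKM with LPS, all 3 within the control range (log2 fold change -0.04, adjusted p = 0.91). Tlr9, the sensor of CpG DNA, was at 2.5, 3.11 and 1.39 FPKM in control cells and at 1.5, 1.1 and 1.82 FPKM with LPS, on 53 to 184 reads, and its groups overlapped (-0.40 with a 95% confidence interval from -1.02 to 0.21, adjusted p = 0.30). Its log2 fold change was -0.24 without control replicate 2 and -0.63 without control replicate 3 (limma adjusted p = 0.58 and 0.12). Tlr7 (chrX:167304929-167330558, minus strand) and Tlr13 (chrX:106143204-106160493, plus strand) share the X chromosome, and Tlr9 lies at chr9:106222598-106226883 on the plus strand. Each has at least 98.8% of its coding sequence in 1 exon.

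The Tlr13 promoter is printed as that of the receptor gene with the deepest fall. Its RefSeq window, chrX:106143025-106143324 of GRCm38.p6 on the plus strand, held GAGGAA (capitals) at -83 and matched neither the NF-κB consensus nor TATAAA. The Tlr9 window (chr9:106222348-106222647, plus strand) held GAGGAA at -112 and 12 and TGANTCA, the AP-1 site, at -58, a motif found in 7.81% of all windows. The Cd180 window (chr13:102693308-102693607, plus strand) held none of these motifs.
Tlr13: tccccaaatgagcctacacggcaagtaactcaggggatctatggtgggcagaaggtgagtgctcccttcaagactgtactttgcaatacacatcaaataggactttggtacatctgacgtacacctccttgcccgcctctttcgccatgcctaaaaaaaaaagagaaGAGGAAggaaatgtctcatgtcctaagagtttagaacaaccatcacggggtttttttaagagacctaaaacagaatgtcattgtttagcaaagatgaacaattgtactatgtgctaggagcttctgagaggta

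Adding G-CDs to LPS left none of the 10 genes past the threshold. limma called 0 of 10 in either direction, beside 0.25% of all tested genes called higher and 0.242% called lower, and 0 of 10 also in limma fits on the other scalings, among them limma's voom on reads rebuilt from FPKM. At the looser rule used by the study, an unadjusted p under 0.01 with a change over 1.5-fold, 0 of 10 were called beside 2.49% of all genes. That count depended on the fit and on the 1 added to FPKM. Tlr1 missed the rule narrowly, with an unadjusted limma p of 0.0089 and a log2 difference of -0.58. Its mean FPKM with LPS + G-CDs was 0.6664 times that with LPS, just past 1.5-fold. The methods of the study do not name the scale of its fold change. Tlr1 and Cd180 met the rule with voom on rebuilt reads, and Tlr1 met it with the gene-length trend removed. Tlr1, Tlr7 and Cd180 met it without LPS + G-CDs replicate 1, Cd180 and Tlr7 without control replicate 1, and Cd180 without control replicate 2. At an unadjusted p under 0.05, 3 of 10 were lower (Tlr1, Tlr7 and Cd180), beside 1765 of all 11585 genes in either direction. The same 3 genes had every LPS + G-CDs library below every LPS library, which 15.0% of all genes had. The macrophage markers Ptprc, Adgre1 and Itgam had it as well (log2 differences of -0.58, -0.66 and -0.42, none called), and their part in the result was not tested. No gene of the 10 had every LPS + G-CDs library above, which 12.9% of all genes had. The median log2 fold change of the 10 was -0.00613, beside 0.0174 for all genes, with 5 values above 0 and 5 below.

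**Figure D2:**
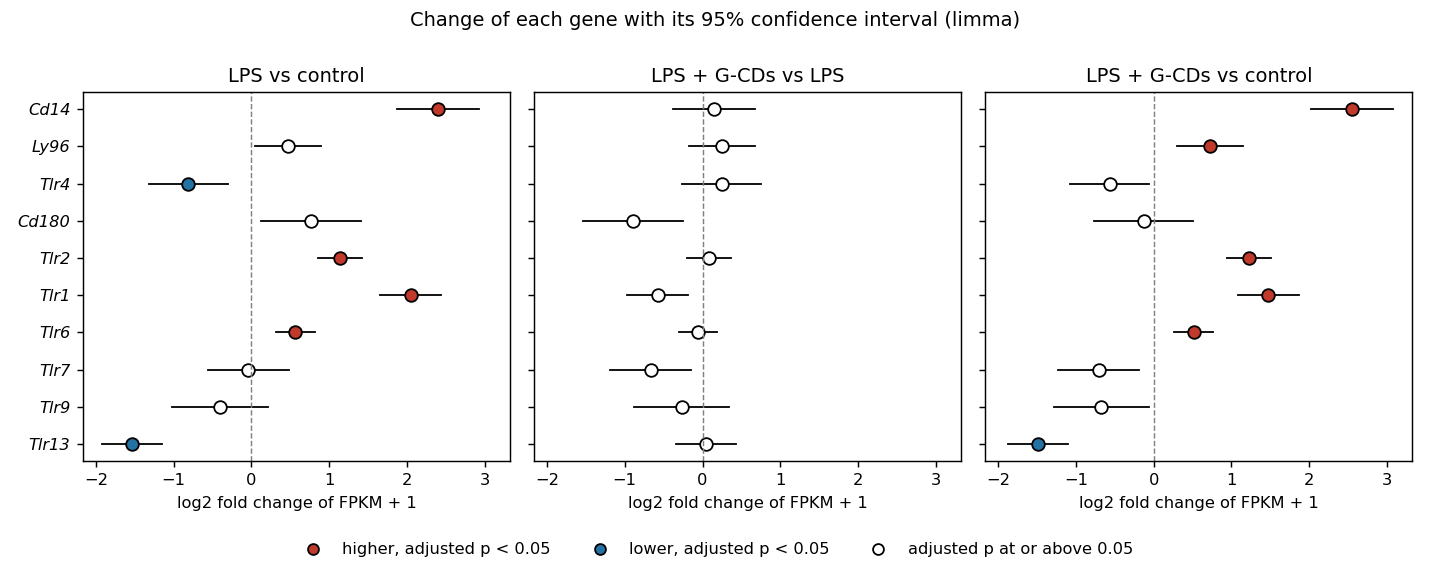
Log2 fold change of each gene on the log2(FPKM + 1) scale with its 95% confidence interval from limma (3 libraries per group), for LPS against control, LPS + G-CDs against LPS and LPS + G-CDs against control. Filled points passed an adjusted p of 0.05, which 6, 0 and 6 of the 10 genes did.

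None of the 4 genes that LPS had raised passed the test between LPS + G-CDs and LPS. Cd14 was 2611 ± 743 FPKM with LPS + G-CDs and 2292 ± 69.5 FPKM with LPS (SD, n = 3), a log2 difference of 0.15 whose 95% confidence interval ran from -0.38 to 0.68. Tlr2 was at 140.0, 147 and 163 FPKM with LPS + G-CDs, close to its LPS level, with a difference of 0.09 and an interval from -0.19 to 0.37. On the TPM scale, where the median of all genes was -0.116, the values were -0.02 for Cd14 and -0.08 for Tlr2, which relative to that median are 0.0959 and 0.0339. Tlr1 was at 19.7, 16.1 and 12.8 FPKM, all below the 3 LPS libraries and all above the 3 control libraries. Its log2 difference from LPS was -0.58 ± 0.17 (SE, n = 3 per group) with an interval from -0.97 to -0.19 and a limma adjusted p of 0.24. Tlr6, at 4.71, 4.07 and 3.92 FPKM, overlapped the LPS group (-0.05, interval from -0.30 to 0.19).

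Cd180 and Tlr7 had the most negative estimates. With LPS + G-CDs Cd180 was 15.1 ± 4.43 FPKM, beside 28.3 ± 1.57 FPKM with LPS (SD, n = 3), and its log2 difference of -0.89 ± 0.28 (SE) had an interval from -1.54 to -0.25 and a limma adjusted p of 0.26. Tlr7 was measured at 13.8, 10.1 and 9.73 FPKM with LPS + G-CDs, below all 3 LPS libraries, with a difference of -0.67 ± 0.23 (SE, n = 3 per group, adjusted p = 0.28). Without LPS + G-CDs replicate 1 the limma adjusted p was 0.054 for Tlr1, 0.062 for Cd180 and 0.069 for Tlr7, the lowest of any alternative tried for these genes. Of the rest, Tlr4 (0.25), Ly96 (0.25), Tlr13 (0.04) and Tlr9 (-0.27) had intervals that include 0. These sizes depended on single libraries. Without LPS + G-CDs replicate 3 they were 0.40 for Tlr4, 0.105 for Ly96 and -0.0348 for Tlr9, and without LPS + G-CDs replicate 1 they were 0.137, 0.387 and -0.486. Ly96 was 0.138 without LPS replicate 1 and 0.402 without LPS replicate 3, and Tlr9 was -0.17 without LPS replicate 3.

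The LPS + G-CDs libraries differed among themselves by gene length. In the 3 genes with exons of at most 3014 bases in all (Ly96, Cd14 and Tlr2), replicate 3 was the highest of the group, and in the 7 genes of 3346 bases or more it was the lowest. Cd14 differed from its LPS mean by -0.237, 0.111 and 0.574 on the log2 scale in replicates 1, 2 and 3, and Cd180 by -0.497, -0.888 and -1.30. Over all tested genes, the length quartile with the longest exons (median 8386 bases) deviated from the group mean by 0.234 in LPS + G-CDs replicate 1 and by -0.224 in replicate 3, whereas the shortest quartile (median 882 bases) deviated by -0.165 and 0.197. The quartiles between them deviated in replicate 3 by 0.136 (median 2865 bases) and -0.0358 (median 4809 bases). In the 7 longer genes replicate 3 deviated by -0.299 (Tlr1), -0.47 (Tlr9), -0.0873 (Tlr6), -0.172 (Tlr7), -0.235 (Tlr13), -0.404 (Cd180) and -0.316 (Tlr4). The part of gene length in the spread of these genes was not tested. Control replicate 3 deviated by -0.198 in the longest quartile, and the LPS libraries stayed between -0.0241 and 0.0143. With the length trend removed from each library, the LPS + G-CDs against LPS difference was -0.68 for Tlr1 (limma adjusted p = 0.18), -0.88 for Cd180 (0.21), -0.69 for Tlr7 (0.23) and -0.06 for Cd14 (0.79).

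**Figure D3:**
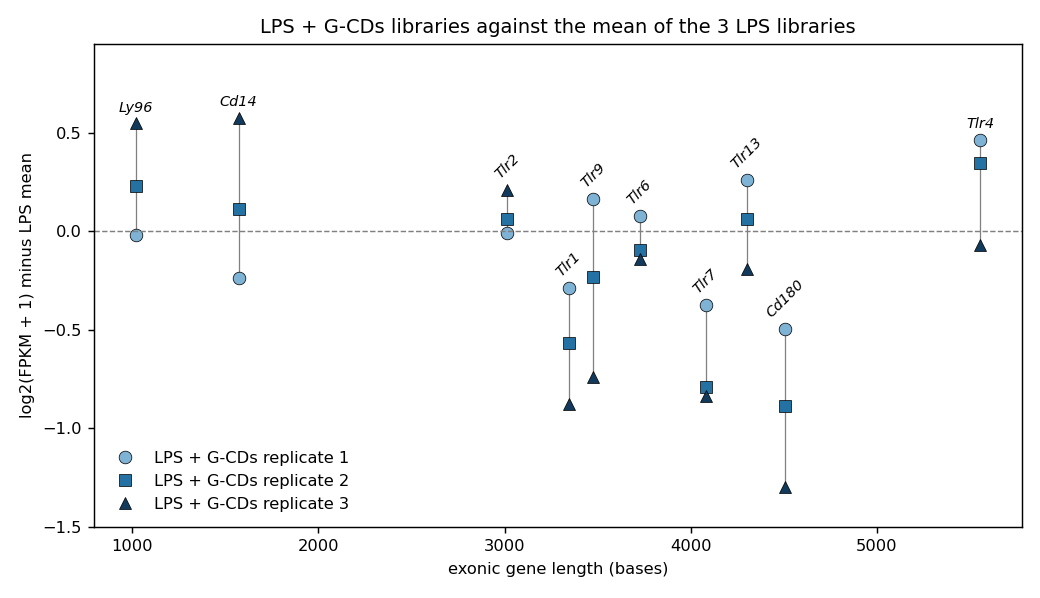
Difference of each LPS + G-CDs library from the mean of the 3 LPS libraries, as log2(FPKM + 1), against the exonic length of the gene in bases. Each gene has 3 points joined by a line, and the points of replicate 3 top the line for Ly96, Cd14 and Tlr2 and end it at the bottom for the other genes.

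LPS + G-CDs against control, which shares libraries with both other comparisons, called 5 genes higher (Cd14, Tlr1, Tlr2, Ly96 and Tlr6) and 1 lower (Tlr13), beside 12.8% of all tested genes called higher and 12.4% called lower. The median log2 fold change of the 10 was 0.192, beside 0.0248 for all genes. Cd14 was higher by 2.55, Tlr1 by 1.47, Tlr2 by 1.22, Ly96 by 0.72 and Tlr6 by 0.51 on the log2 scale, and Tlr13 was at -1.49 (limma adjusted p = 6.6e-05, 0.00029, 0.00012, 0.02, 0.0079 and 0.00026). Ly96 thus passed here and not with LPS alone, and the difference between those estimates is the LPS + G-CDs against LPS value given for it. Its adjusted p was 0.065 without control replicate 1, 0.062 without LPS + G-CDs replicate 2 and 0.051 without LPS + G-CDs replicate 3. On the TPM scale the median of all genes was -0.334, Ly96 and Tlr6 had adjusted p-values of 0.11 and 0.44, and relative to that median they stood at 0.701 and 0.514.

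The remaining receptors missed the threshold against control. Tlr7 differed from control by -0.70 ± 0.23 (SE, n = 3 per group) at a limma adjusted p of 0.054, and kept its side of the threshold in 13 of 20 alternatives. The others included TPM (0.015), removal of the length trend (0.037), voom (0.046), and leaving out control replicate 1 (0.0045) or LPS + G-CDs replicate 1 (0.033). Tlr9 was measured at 1.75, 1.09 and 0.471 FPKM with LPS + G-CDs, with a difference of -0.67 (adjusted p = 0.10, and 0.041 without control replicate 3 or 0.039 without LPS + G-CDs replicate 1). The Tlr9 difference was -0.44 (adjusted p = 0.26) without LPS + G-CDs replicate 3 and -0.50 (0.28) without control replicate 2. For Tlr4 the LPS + G-CDs libraries lay below the control libraries without overlap, with a difference of -0.56 (adjusted p = 0.10). Without control replicate 2 it was -0.31 (adjusted p = 0.28), and on the TPM scale it was -0.89 (adjusted p = 0.039), or -0.556 relative to the median of all genes. Cd180 was close to control (-0.13, interval from -0.77 to 0.51).

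The genes were ordered by mean FPKM, a level per length in which the deviations by gene length described above remain. The order of genes of unlike length is given with that limit. Control cells held Cd14 and then Tlr2, each above the next without overlap of libraries. Tlr7 and Cd180 followed and overlapped, and Tlr13, Tlr1, Tlr4, Ly96, Tlr6 and Tlr9 formed a chain between 5.21 and 2.33 FPKM in which each overlapped its neighbour. With LPS the order was Cd14, Tlr2, Cd180, Tlr1, Tlr7, Ly96, Tlr6, Tlr4, Tlr9 and Tlr13, and the libraries of neighbours overlapped only for Ly96 with Tlr6 and for Tlr9 with Tlr13. Tlr13 thus went from place 5 to place 10 and Tlr1 from place 6 to place 4. With LPS + G-CDs, Tlr1, Cd180 and Tlr7 overlapped at places 3 to 5 (16.2 ± 3.47, 15.1 ± 4.43 and 11.2 ± 2.26 FPKM, SD, n = 3).

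Ratios of partner genes within a library do not depend on a single scaling factor per library. They do carry deviations by gene length, since partners can differ in length, as Cd14 (1572 bases) and Tlr4 (5556 bases) do. No ratio was computed with the length trend removed, so the part of gene length in the ratios was not tested. Cd14 per Tlr4 was between 60.5 and 146 in control libraries and between 992 and 1237 in LPS libraries, 11.2 times higher by geometric mean, and between 620 and 1837 with LPS + G-CDs. Ly96 per Tlr4 was between 0.521 and 1.01 in control libraries and between 1.99 and 3.16 in LPS libraries, so that Ly96 exceeded Tlr4 in every LPS library. Tlr2 per Tlr1 was between 10.99 and 13.6 in control cells and between 5.55 and 5.99 with LPS, while Tlr2 per Tlr6 went from between 21.8 and 25.1 to between 30.4 and 33.4. Per Tlr2 there was thus more Tlr1 and less Tlr6. None of these LPS and control ranges overlapped, and in each case the exact two-sided permutation test gave p = 0.1, the smallest that 3 against 3 libraries allow (adjusted p = 0.16 over 24 tests of 8 pairs).

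With LPS + G-CDs, 3 ratios left the LPS range without overlap. Tlr2 per Tlr1 was between 7.10 and 12.7, 1.62 times the LPS value by geometric mean, Tlr13 per Tlr7 was between 0.0884 and 0.121, 1.71 times, and Ly86 per Cd180 was between 0.929 and 2.58, 2.47 times (exact permutation p = 0.1 for each, adjusted p = 0.16, n = 3 per group). Tlr1, Tlr7 and Cd180 are the denominators of these ratios. Cd14 per Tlr4 (0.87 times, exact p = 0.7), Ly96 per Tlr4, Tlr2 per Tlr4, Tlr2 per Tlr6 and Tlr9 per Tlr7 overlapped between LPS and LPS + G-CDs. Ly86, at 18.3, 22.8 and 28.0 FPKM with LPS + G-CDs, overlapped its LPS range itself.

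**Figure D4:**
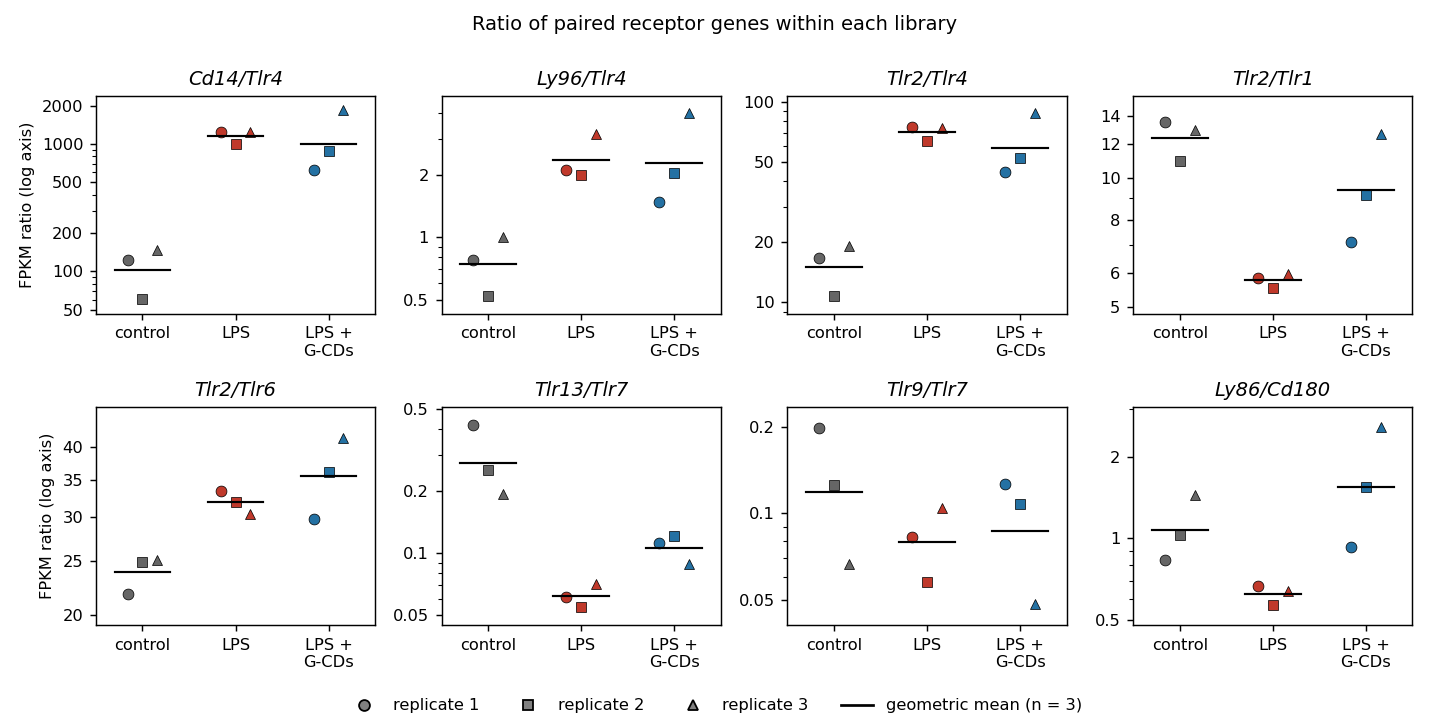
Ratio of 2 FPKM values within each library (log axes), for 8 pairs of partner genes or of receptors of 1 compartment, with a line at the geometric mean of each group of 3 libraries. Cd14/Tlr4 stands between 60.5 and 146 in control and between 992 and 1237 in LPS libraries, and Tlr2/Tlr1, Tlr13/Tlr7 and Ly86/Cd180 with LPS + G-CDs lie above their LPS ranges.

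Of the 5 other Toll-like receptor genes only Tlr3, the sensor of double-stranded RNA, was tested. It was at 0.154, 0.293 and 0.140 FPKM in control cells, at 1.36, 1.74 and 1.35 FPKM with LPS, and at 1.61, 1.31 and 1.07 FPKM with LPS + G-CDs. It rose with LPS by 1.05 on the log2(FPKM + 1) scale, which understates the change of a gene this low (limma adjusted p = 0.00062). Tlr5, the flagellin receptor, had 6 reads in 2 libraries. Tlr8, Tlr11 and Tlr12 had 0 reads in each library, where a floor of 3 reads corresponds to between 0.0446 and 0.0684 FPKM, a limit that covers counting error only.

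Genes that carry, fold or cut the receptors moved in both directions with LPS. Of 21 listed partners, chaperones and endosomal enzymes, 19 were tested, and 5 rose and 5 fell, beside 15.8% and 15.6% of all tested genes, with a median log2 fold change of 0.0131 (all genes 0.0165). One rise, that of the endosomal protease Ctsl (limma adjusted p = 0.049), was kept in 8 of 20 alternatives. The largest rises were Slc15a3, an endolysosomal transporter of histidine and peptides, from 5.10 ± 0.301 to 106 ± 4.93 FPKM (SD, n = 3), Scimp, a membrane adaptor of TLR signalling, from 1.2 ± 0.175 to 12 ± 0.884 FPKM, and Pld3, a lysosomal exonuclease, from 8.72 ± 2.72 to 25.2 ± 1.53 FPKM. The largest falls were the exonuclease Pld4 (from 36.1 ± 5.71 to 13.2 ± 0.547 FPKM), the endosomal protease Lgmn (from 138 ± 9.94 to 56.4 ± 1.73 FPKM) and Cnpy3, a chaperone of surface and endosomal receptors (from 30.6 ± 4.66 to 12.7 ± 1.60 FPKM). The related exonucleases Pld3 and Pld4 thus moved in opposite directions (log2 fold changes of 1.48 and -1.37, limma adjusted p = 0.00071 and 0.00018). LPS + G-CDs against LPS called 0 of 19, beside 0.25% of all genes called higher and 0.242% called lower, with 13 values above 0 and 6 below and a median of 0.109.

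Among adaptors and kinases downstream of the receptors the LPS response was mostly upward. Of 19 listed genes 17 were tested, and 9 rose and 1 fell, beside 15.8% and 15.6% of all tested genes, with a median log2 fold change of 0.63. The largest rises were Peli1, a ubiquitin ligase of the pathway (2.85, from 3.73 ± 0.363 to 33.1 ± 1.80 FPKM, SD, n = 3), the kinase Irak2 (2.84, from 5.17 ± 0.237 to 43.1 ± 1.67 FPKM) and the adaptor Pik3ap1 (2.29, from 25.9 ± 11.8 to 120 ± 6.93 FPKM), and the fall was that of Tab1, a partner of the kinase TAK1 (-0.71, from 12.3 ± 1.82 to 7.08 ± 0.525 FPKM). LPS + G-CDs against LPS called 0 of 17 (all genes 0.25% higher and 0.242% lower), with 3 values above 0, 14 below and a median of -0.283 beside 0.0174 for all genes. In 8 of the 17 every LPS + G-CDs library was below every LPS library, beside 15.0% of all genes. Pik3ap1 was spread widely there, at 101, 62.5 and 23.7 FPKM. Against control, LPS + G-CDs libraries had 5 of the 17 higher, led by Irak2 (2.41), Peli1 (2.18) and Ticam1, the TRIF adaptor (1.82), and Ticam2, Tab1 and Irak1 lower (-0.65, -0.56 and -0.49), beside 12.8% and 12.4% of all genes. In that comparison the calls for Irak1 (limma adjusted p = 0.039) and Ticam2 (0.041) were kept in 11 of 20 and 12 of 19 alternatives, and that for Myd88 in 15 of 20. With LPS alone the call for Tirap was kept in 15 of 20.

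**Figure D5:**
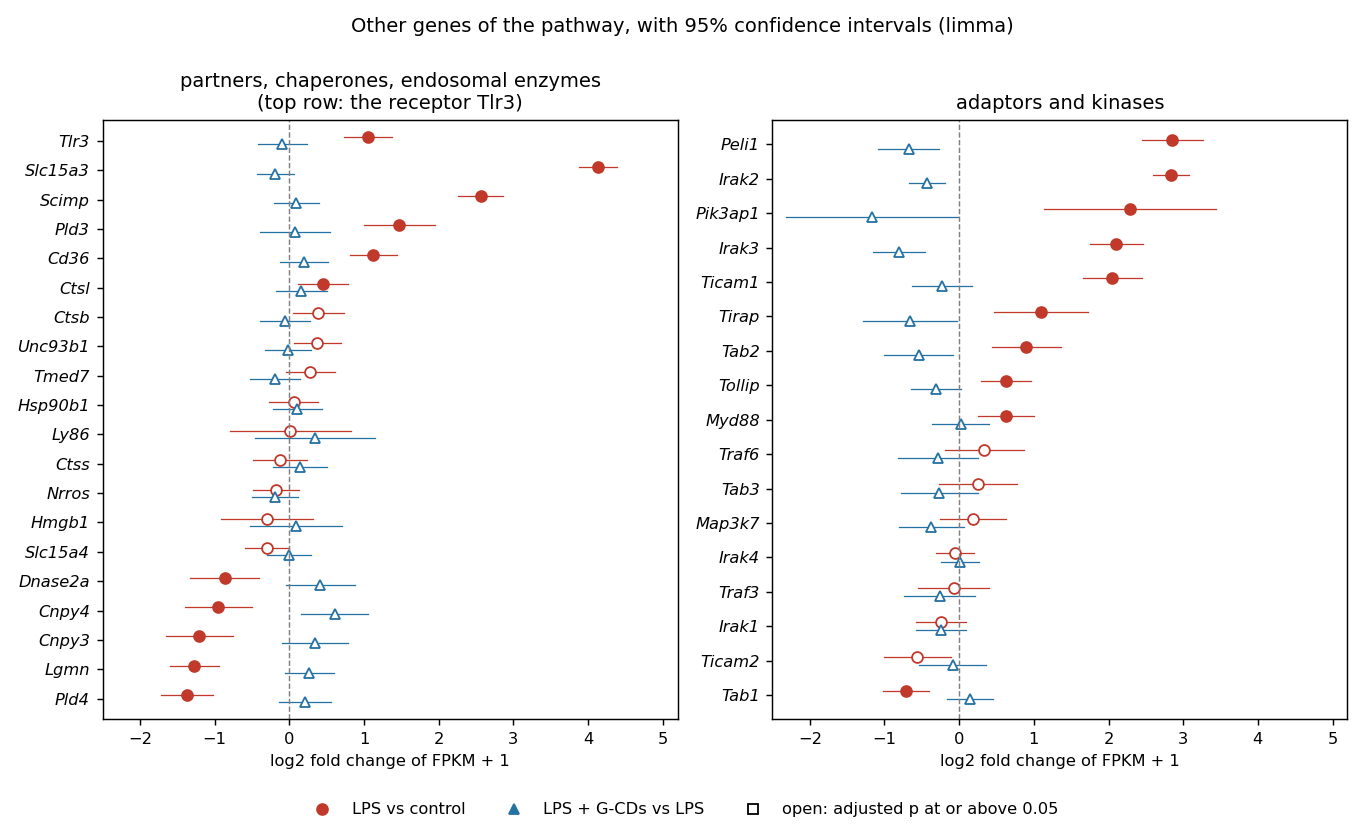
Log2 fold changes on the log2(FPKM + 1) scale with 95% confidence intervals (limma, 3 libraries per group) of Tlr3 and 19 partners, chaperones and endosomal enzymes (left) and of 17 adaptors and kinases (right). Circles give LPS against control and triangles LPS + G-CDs against LPS, filled at an adjusted p under 0.05, and no triangle is filled.

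Likeness of profile over the 9 libraries was measured as the root mean square difference between centred log2(FPKM + 1) profiles. The nearest genes were Oas1g (0.0908) and Oas1a (0.125) for Cd14, Cd44 (0.0859) and Ets2 (0.105) for Tlr1, Cited2 (0.0695) and Cbwd1 (0.0758) for Tlr2, and Uba3 (0.0548) and Nploc4 (0.0597) for Tlr6. They were Stx2 (0.0953) and Srgap3 (0.101) for Tlr13, Ank (0.126) and Mfsd6 (0.141) for Tlr4, Atl3 (0.108) and Zfp526 (0.115) for Tlr9, and Igsf6 (0.16) and Pkd2l2 (0.173) for Tlr7. Tmem159 (0.119) and Them4 (0.12) were nearest to Ly96, and Ptbp1 (0.153) to Cd180. The closest pair among the 10 was Tlr6 with Ly96 at 0.253, and Tlr1 was place 283 by nearness to Cd14. These distances share the libraries and their depth and are given as a description.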

How the data were processed

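Poly(A) RNA of 9 libraries (3 per group) was sequenced on an Illumina instrument. The authors deposited FPKM values per gene and library, with gene coordinates and lengths; the submitters' notes name GRCm38 and mm10, and the aligner and counter are not given in the sources used here. Gene coordinates equalled those of GENCODE mouse release M21 for 53499 of 54409 genes, and 9 of the 10 members. FPKM times length gave whole reads (within 0.05 reads) in 100% of cases, and 14752400 to 17312255 reads per library; the floor of 3 reads covers counting error only, whereas limma intervals cover the spread between libraries. The library size behind the FPKM of the authors was 1.11 to 1.14 times the reads on genes in control, 0.929 to 0.936 times in LPS and 0.880 to 0.980 times in LPS + G-CDs libraries.

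Genes with at least 1 FPKM in at least 3 libraries (11585) were fitted as log2(FPKM + 1) with limma 3.58.1 in R 4.3.3 (1 model of 3 groups, mean-variance trend, two-sided, Benjamini-Hochberg adjusted p over all genes), after a test on simulated data. Ratios were compared with exact permutation tests (scipy 1.17.1). The members and lists were chosen with earlier results of these data known. From the lists, up to 3 rises and 3 falls per comparison were named, with every Toll-like receptor and Ly86, and the 2 nearest genes per member by likeness, of which 1 is not reported here. Alternatives were a pseudocount of 0.1, other filters, TPM, scaling by quantiles or median of ratios, fits to the 6 libraries compared, no trend, voom on rebuilt reads, removal of the length trend, the replicate number as a block, and leaving out each library. Same-numbered control and LPS libraries deviated together (correlations 0.103, 0.137 and 0.113, all over the limit of 0.1), whereas those of LPS + G-CDs did not in every pair; no source says what a number stands for. No column of values was left unmapped.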

Additional observations from a re-analysis of the deposited data

How the results depend on the processing

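With at least 5 FPKM required in 3 libraries only 6 of the 10 genes were tested, and LPS against control called 3 of them in place of 6. Leaving out 1 library at a time, 5 to 7 genes were called for LPS against control, 0 to 0 for LPS + G-CDs against LPS and 5 to 8 for LPS + G-CDs against control. The replicate block called 7, 0 and 6 genes, and the added gene was Ly96 with LPS (limma adjusted p = 0.019), so that the block changed no other call. Of the single-gene fold changes under alternatives, 550 kept direction and side of the threshold, 14 gained a call, 12 lost one and 12 changed sign. No ratio test of this size could pass 0.05. With 1 library left out, 137 log2 ratio differences kept their sign and 7 did not, all for LPS + G-CDs against LPS in pairs whose groups overlapped: Cd14 per Tlr4 ran from -0.634 to 0.149, Ly96 per Tlr4 from -0.442 to 0.266 and Tlr9 per Tlr7 from -0.136 to 0.558.

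No called gene changed sign. Leaving out 1 library at a time, Tlr7 with LPS ran from -0.307 (without control replicate 1) to 0.153 (without control replicate 2), with 0.037 without control replicate 3. For LPS + G-CDs against LPS, TPM gave -0.0819 for Tlr2, -0.0311 for Tlr13 and -0.0199 for Cd14, on a scale where the median of all genes was -0.116 and relative to which they are 0.0339, 0.0847 and 0.0959; quantile scaling gave -0.0781 for Tlr2; removal of the length trend gave -0.0499 for Tlr2 and -0.0611 for Cd14. In the same comparison Tlr13 ran from -0.0665 (without LPS + G-CDs replicate 1) to 0.159 (without replicate 3) and Cd14 from -0.0626 (without replicate 3) to 0.343 (without replicate 1). Cd180 with LPS + G-CDs against control ran from -0.438 (without control replicate 1) to 0.104 (without control replicate 2), with 0.072 without LPS + G-CDs replicate 3. The cause of these shifts was not tested. Tlr9 and Ly96 rest on 23 to 184 and 52 to 106 reads per library.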
